A study of Mus musculus with 234 samples.

Results

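The 10 genes described here are the core transcription factors of the heart muscle cell (cardiomyocyte, CM), together with the cofactor *Lbh*: *Gata4*, *Gata6*, *Nkx2-5*, *Mef2a*, *Mef2c*, *Mef2d*, *Tbx5*, *Tbx20*, *Hand2* and *Lbh*. They were taken by name from the 55538 features of the count table, and each name stood on exactly 1 row. Cardiac transcription factors bind one another and share the enhancers of heart genes, so that the contractile proteins, ion channels and natriuretic peptides of a CM are controlled by combinations of them. GATA zinc-finger, NK homeobox, MADS-box (MEF2), T-box and basic helix-loop-helix (HAND) proteins set up the heart in the embryo, and most of them remain expressed in CMs after birth. LBH, named for limb bud and heart, has no classical DNA-binding domain and is known to modulate the activity of cardiac transcription factors.

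The counts are those of 234 CMs, hand-picked after dissociation of 5 hearts and sequenced with SMART-seq2, a full-length method without molecular identifiers. Of the homozygous animals, labelled PGKcre:BAG3P209L_homo, M25 gave 21 bright and 18 dim CMs and M116 gave 59 and 50. The heterozygous animal M72, labelled PGKcre:BAG3P209L_het, gave 27 bright and 26 dim CMs. These mice carry human BAG3 with the P209L mutation fused to eGFP, driven by the CAG promoter at the Rosa26 locus and switched on by Cre under the PGK promoter, a line derived from 1 embryonic stem cell clone. The controls, labelled C57BL/6, were M26 with 24 CMs and M73 with 9. The study describes its transgenic lines as a mix of C57BL/6 with other strains. Whether strain differed between these controls and the transgenic mice was not stated. The study defines its controls as siblings that may be wild type or carry Cre or the silent transgene alone. The sample titles of M26 and M73 read wt. Bright and dim refer to the eGFP fluorescence of the picked cell. Control and homozygous mice were 2 weeks old, and for M72 no age was stated. All CMs of a mouse in a brightness class were added up to 1 sum, giving 8 sums, and each tested comparison had 2 mice per group.

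The sums held between 4096609 (M73) and 40508124 counts (M116, bright), and a cell held between 487 and 1392253 counts. Mice M25 and M26 were on plate GL-9122b, whereas M72, M73 and M116 were on the GL9989 plates, so that each plate series held a homozygous and a control mouse. Within the GL9989 series, M72 and M73 were on plate GL9989-1 and M116 on GL9989-2 and GL9989-3, so that M116 and M73 shared no plate. The 8 CM markers together reached 76762 to 96879 CPM (counts relative to all counts of a sum) in the 8 sums, which accorded with the cell type label. The 8 fibroblast markers together lay between 33.4 and 514 CPM in 7 sums and at 2537 CPM in the bright sum of M25, where 1 well held 88.7% of those counts. The 8 endothelial markers together reached 517 and 359 CPM in dim CMs of M25 and M116, compared to 180 and 167 CPM in their bright CMs and 241 and 334 CPM in M26 and M73. The 7 immune markers together reached 73.7 and 64.4 CPM in dim CMs, compared to 0.264 and 2.00 CPM in bright CMs and 3.57 and 11.96 CPM in the controls, and 1 well of M25 held 99.6% of the counts in its dim sum. In the bright sum of M25 3 wells had less than 20000 CPM of CM markers, and these wells held 0, 1 and 3 counts of the 10 genes. The human BAG3 feature reached 294 and 233 CPM in bright CMs of M25 and M116, 10.7 and 99.6 CPM in their dim CMs and 0.408 and 0.488 CPM in the controls. In M72 it was lower in CMs labelled bright (105 CPM) than in CMs labelled dim (251 CPM), against the order of the labels, and these classes are therefore named only as the labelled ones. M72 had *Xist* at 0.53 and 4.22 CPM and *Ddx3y* at 81.5 and 56.3 CPM (scaled with TMM factors over all 8 sums). In all other sums *Xist* lay between 158 and 389 and *Ddx3y* at 0.29 or less. By these genes M72 was male and the other mice female, so that its genotype and sex cannot be told apart.

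All 10 genes passed the filter on low counts in each of the 3 comparisons. *Lbh* was the only one with a higher level in all 6 transgenic sums than in both controls, a pattern that 7.2% of the 16615 genes kept over the 8 sums had, so that 1 of 10 genes is near the background. For *Gata4*, *Gata6*, *Mef2d*, *Tbx5* and *Hand2* the 2 control mice differed 2.56- to 3.10-fold, more than the highest and lowest of the 4 homozygous sums, and this was also so, by a smaller margin, for *Mef2c* and *Tbx20*. None of the 10 genes passed the threshold of 0.05 for the adjusted p in any comparison.

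**Figure D1:**
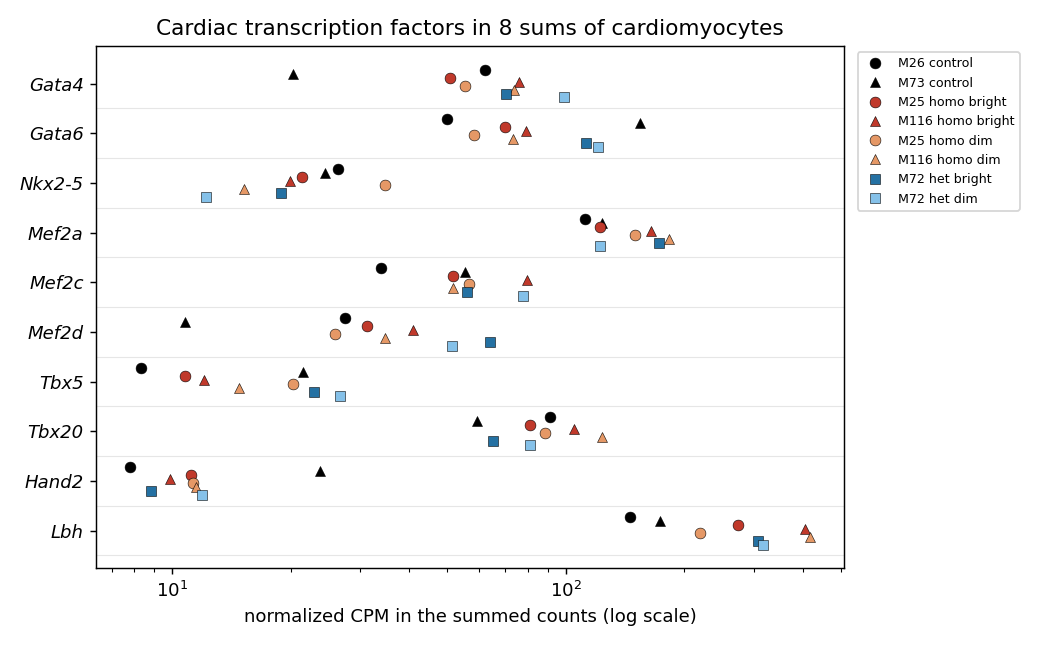
Level of each gene in each of the 8 sums, as normalized CPM on a log scale; circles are plate GL-9122b, triangles and squares the GL9989 plates. *Lbh* lies at 146 and 173 normalized CPM in the control sums and between 219 and 417.5 in the 6 transgenic sums, whereas the controls enclose all transgenic sums for *Gata6* and *Hand2*.

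Per kilobase of annotated exon, *Lbh* had the highest level of the 10 genes in every sum, at 41.6 and 45.4 CPM per kilobase in control CMs of M26 and M73. *Gata6*, *Nkx2-5* and *Gata4* followed in the mean of both controls, and their order could not be told from the spread, since *Gata4* lay at 14.6 and 4.38 CPM per kilobase and *Gata6* at 7.01 and 19.9 in M26 and M73. *Nkx2-5* lay at 14.1 and 11.9 CPM per kilobase. *Mef2a*, *Hand2* and *Tbx20* had mean control levels of 7.03, 5.78 and 5.56 CPM per kilobase, and *Mef2d*, *Tbx5* and *Mef2c* of 2.86, 2.75 and 2.47. Exons of opposite-strand genes cover 19.6% of the exon length of *Hand2* (*Hand2os1*) and 8.87% of that of *Mef2d*. Whether the counting used strand was not given in the sources used here, so that reads of these partners cannot be told apart.

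*Lbh* in bright CMs reached 265 normalized CPM (scaled with TMM factors within the comparison) in M25 and 393 in M116, compared to 140 in M26 and 174 in M73. Both bright sums lay above both control sums. The group means were 329 ± 90.4 and 157 ± 23.9 normalized CPM (SD, n = 2 mice each), a 2.09-fold difference. The log2 fold change was 1.07 with an SE of 0.34, with an unadjusted p of 0.0191 and an adjusted p of 0.663 (edgeR). The difference thus did not pass the threshold, and *Lbh* was at rank 212 of 12203 genes by p. An exact permutation test with 2 against 2 mice gave p = 0.333 (two-sided), the smallest it allows. Of all genes tested, 6.55% had an unadjusted p under 0.05.

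In dim CMs *Lbh* reached 211 normalized CPM in M25 and 401 in M116, compared to 141 in M26 and 170 in M73. Again, both dim sums lay above both control sums. The log2 fold change was 0.98 (SE 0.40), with an unadjusted p of 0.0465 and an adjusted p of 0.787 (edgeR), and 6.22% of the 12195 genes tested had an unadjusted p under 0.05. This comparison uses the same 2 control sums and the same homozygous mice as that of bright CMs, and is no independent support of it. Between bright and dim CMs, *Lbh* differed by 0.09 on the log2 scale (SE 0.37, edgeR adjusted p = 0.999) with levels of 295 and 432 in bright and 236 and 448 in dim CMs of M25 and M116. Brightness classes overlapped, and the difference between the 2 mice was larger than that between the classes.

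Within each plate series the *Lbh* level of homozygous CMs exceeded that of the control mouse, although M116 and M73 shared no plate. On the log2 scale the difference was 0.91 for M25 and 1.23 for M116 in bright CMs, and 0.59 and 1.27 in dim CMs, with 1 mouse on each side and no test. On the 2 plates that hold M116, bright CMs had 451 and 453 CPM and dim CMs 481 and 421 CPM of *Lbh*. The heterozygous mouse M72 had 309 normalized CPM (scaled over all 8 sums) in CMs labelled bright and 317 in CMs labelled dim, both above the 146 and 173 of the controls and within the 219 to 417.5 of the homozygous sums. Relative to M73, which shared its plate but not its sex, M72 was higher by 0.83 and 0.87 on the log2 scale.

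**Figure D2:**
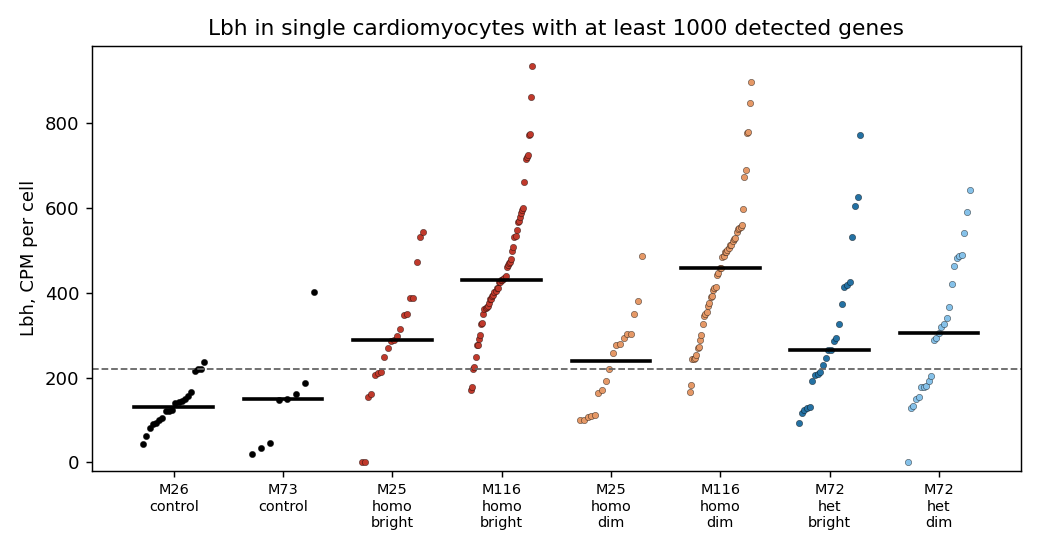
*Lbh* in each CM with at least 1000 detected genes, in CPM of the cell, with the cells of a sum ordered by their level; thick bars are medians and the dashed line is the 90th percentile of the 28 control CMs, 220 CPM. Of the M116 cells, 53 of 56 bright and 46 of 48 dim CMs lie above the line, compared to 2 of 20 cells of M26 and 1 of 8 cells of M73.

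The higher *Lbh* sums did not rest on a few cells. Among CMs with at least 1000 detected genes, the median of the 28 control cells was 141 CPM. All 56 bright and all 48 dim CMs of M116 lay above this value, as did 18 of 20 bright and 13 of 18 dim CMs of M25. For M72 the numbers were 19 of 24 and 22 of 25 cells. The cell with the most *Lbh* counts held 4.04% of those of the M116 bright sum and 8.53% of those of the M25 bright sum, but 39.4% of those of M73, whose sum rests on 9 cells. Cells of a mouse are not replicates, and these numbers describe the spread only. Detection of *Lbh* did not separate the groups. It was found in 20 of 24 cells of M26 (83.3%, 95% exact binomial interval 62.6 to 95.3%) and 8 of 9 cells of M73 (88.9%, 51.8 to 99.7%), and in 18 of 21 bright cells of M25 (85.7%, 63.7 to 96.95%) and 58 of 59 bright cells of M116 (98.3%, 90.9 to 99.96%). The 4 cells of M26 without a count had fewer than 1000 detected genes, and the 3 of M25 were the wells low in CM markers. In the other transgenic sums it was found in 88.9 to 100% of cells. After thinning to 100000 counts per cell, *Lbh* was found in every remaining cell of 7 sums and in 18 of 21 bright cells of M25. Across cells within a sum, Spearman's rho between *Lbh* and the human BAG3 feature was -0.05 in bright CMs of M116 (56 cells). It was 0.04 in dim CMs of M116 (48 cells) and between -0.09 and 0.23 in the other transgenic sums. These values share the library depth of each cell. In the bright sum of M25 alone, cells without an *Lbh* count were left out of the correlations, so that 18 cells remained. Between *Lbh* and the number of detected genes, rho ranged from -0.52 in M73 to 0.17 in CMs of M72 labelled dim. It was negative in every sum but the latter.

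The promoter of *Lbh* is shown because this gene is described in most detail here. The 250 bases upstream of its annotated start are those of RefSeq on GRCm38.p6, chr17:72918055-72918304, plus strand, and the capitals mark a TATAAA motif whose first base lies 29 bases before the start.

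*Lbh*: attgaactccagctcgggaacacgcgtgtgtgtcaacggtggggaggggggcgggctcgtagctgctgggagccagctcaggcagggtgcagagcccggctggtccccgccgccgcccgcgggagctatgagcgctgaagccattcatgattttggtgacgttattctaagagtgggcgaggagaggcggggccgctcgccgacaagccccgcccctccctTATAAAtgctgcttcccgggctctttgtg

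The window was searched on both strands for TATAAA and for short cores of the sites bound by GATA, NK, T-box and HAND proteins; no MEF2 site was searched. TATAAA was found once, and 12.4% of 32851 RefSeq promoter windows of this length hold it. GATA (in 53.6% of windows), AAGTG (NK type, 40.7%), AGGTGT (T-box, 11.8%) and CANNTG (E-box, bound by HAND proteins, 66.2%) were not found. No match means only that these letters are not in this window.

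GATA4 and GATA6 are zinc-finger factors with overlapping roles in CM growth and survival. *Gata4* in bright CMs lay at 49.3 normalized CPM in M25 and 73.6 in M116, compared to 59.8 in M26 and 20.4 in M73. The bright sums thus lay on both sides of the M26 value, and M73 was low. *Gata6* showed the opposite order of the controls, with 67.9 and 76.7 normalized CPM in bright CMs of M25 and M116, 47.9 in M26 and 155 in M73. The groups overlapped for both genes, with log2 fold changes of 0.61 (SE 0.62) for *Gata4* and -0.49 (SE 0.59) for *Gata6* and edgeR adjusted p of 0.949 and 0.952. In dim CMs the values were 53.4 and 70.9 for *Gata4* and 56.2 and 70.5 for *Gata6*, again between the controls or above the higher one, with log2 fold changes of 0.63 (SE 0.61) and -0.65 (SE 0.58). These values rested on which control was used. For *Gata4* the log2 fold change was 1.61 without M26 and 0.039 without M73 in bright CMs and 1.65 and 0.051 in dim CMs, and for *Gata6* it was -1.08 and 0.59 in bright and -1.24 and 0.40 in dim CMs.

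The ratio of *Gata6* to *Gata4* counts set M73 apart from the other sums. It was 7.6 in M73 (532 to 70 counts, 95% interval 5.92 to 9.90 for counting error only) and between 0.802 (M26) and 1.60 (M72, labelled bright) in the other 7 sums. In M73 the cell with the most *Gata4* counts held 54.3% of them, and another cell held 30.6% of the *Gata6* counts. Among cells with at least 1000 detected genes, the median level of *Gata4* was 6.89 CPM in the 8 cells of M73 and 48.3 CPM in the 20 cells of M26, and that of *Gata6* was 118 and 44.8 CPM. Without M26, so that M73 alone stood for the controls and its spread was assumed to be that of the homozygous sums, *Gata4* had an edgeR adjusted p of 0.119 in bright and 0.0738 in dim CMs, and *Gata6* of 0.114 and 0.0753.

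*Nkx2-5*, an NK homeobox factor required for cardiac identity and conduction, had 20.7 and 19.2 normalized CPM in bright CMs of M25 and M116 and 25.4 and 24.5 in M26 and M73. Both bright sums were below both control sums, by a log2 fold change of -0.32 (SE 0.60, edgeR adjusted p = 0.975). In dim CMs M25 had 33.4 and M116 14.6 normalized CPM, on either side of the controls. M72 had 18.8 and 12.2 normalized CPM in its labelled bright and dim classes, so that 5 of 6 transgenic sums lay below both controls and the dim sum of M25 above. On the plates of M116 its level was 31.1 and 12.6 CPM in bright and 22.4 and 8.13 CPM in dim CMs, a difference between plates of 1 mouse that exceeded the difference between the group means.

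MEF2 proteins are MADS-box factors that activate contractile and metabolic genes and respond to calcium-dependent kinases and class II histone deacetylases. *Mef2a* had 118 and 159 normalized CPM in bright CMs of M25 and M116 and 108 and 125 in the control mice, with overlap and a log2 fold change of 0.26 (SE 0.34). Dim CMs had 145 and 175 normalized CPM, both above the 108 and 121 of the controls in that comparison, a log2 fold change of 0.48 (SE 0.34, edgeR adjusted p = 0.980). *Mef2a* was also the gene with the narrowest range over the 8 sums, 1.63-fold from the lowest to the highest. Its level differed between the plates of M116, with 236 and 128 CPM in bright CMs.

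*Mef2d* had 30.3 and 39.5 normalized CPM in bright CMs of M25 and M116, compared to 26.5 and 10.8 in M26 and M73. Both bright sums lay above both controls, with a log2 fold change of 0.89 (SE 0.67, edgeR adjusted p = 0.925). Dim CMs had 24.9 and 33.3 compared to 26.6 and 10.5 in that comparison, with overlap and a log2 fold change of 0.64 (SE 0.70). The difference was 0.18 on the log2 scale between M25 and M26 and 1.93 between M116 and M73. The log2 fold change was 1.71 without M26 (edgeR adjusted p = 0.129) and 0.40 without M73 in bright CMs, and 1.48 (adjusted p = 0.146) and 0.13 in dim CMs. M73 had 37 *Mef2d* counts, of which 56.8% came from 1 cell. The highest levels were those of M72, at 64.1 and 51.5 normalized CPM. *Mef2c* had 50.1 and 77.0 normalized CPM in bright CMs, compared to 32.5 and 55.7 in the controls, with overlap and a log2 fold change of 0.53 (SE 0.50). On the plates of M116, bright CMs had 115 and 60.9 CPM of *Mef2c* whereas dim CMs had 34.5 and 88.3 CPM, so that the order of bright and dim CMs differed between plates of the same mouse.

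TBX5 and TBX20 are T-box factors of chamber and conduction system genes. *Tbx5* had 10.4 and 11.6 normalized CPM in bright CMs of M25 and M116 and 7.998 and 21.6 in M26 and M73, which enclosed them. Compared with dim CMs of the same mice (21.9 and 15.9 against 11.6 and 12.8 in bright CMs), *Tbx5* was lower in both mice, with a log2 fold change of -0.63 (SE 0.43, edgeR adjusted p = 0.999). *Tbx20* had 78.7 and 101 normalized CPM in bright and 85.2 and 118 in dim CMs, with 87.5 and 59.8 in the controls of the bright comparison. The groups overlapped, and the log2 fold changes were 0.29 (SE 0.40) and 0.47 (SE 0.41). *Tbx5* was found in 39.0 to 66.7% of the cells of a sum, compared to 77.8 to 100% for *Tbx20*.

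HAND2, a basic helix-loop-helix factor of the developing right ventricle and outflow tract, had low counts here. *Hand2*, scaled over all 8 sums, lay at 11.1 and 9.85 normalized CPM in bright CMs and at 11.3 and 11.5 in dim CMs of M25 and M116, and at 7.81 and 23.8 in M26 and M73. The homozygous sums were close to each other and between the controls, and the log2 fold changes of -0.62 (SE 0.92) and -0.48 (SE 0.91) did not pass the threshold. It was detected in 41.7 to 83.3% of the cells of a sum, and in 25 to 55.6% after thinning to 100000 counts.

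**Figure D3:**
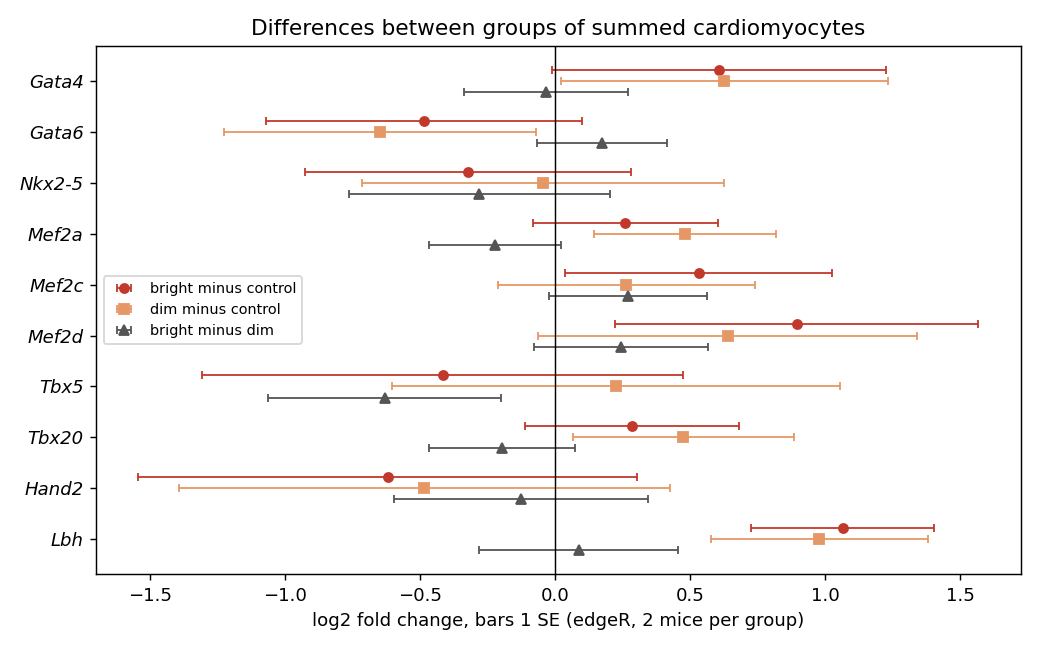
Log2 fold change of each gene in the 3 comparisons, with bars of 1 SE derived from the edgeR fold change and F statistic. *Lbh* lies at 1.07 and 0.98 against control and at 0.09 between bright and dim CMs, and the SE against control ranges from 0.34 to 0.92 over the 10 genes.

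Between bright and control CMs, 6 of the 10 genes had a positive and 4 a negative log2 fold change, with a median of 0.27 compared to 0.11 over all 12203 genes tested. None passed the adjusted threshold, compared to 0.0164% of all genes, and *Lbh* was the only one of the 10 with an unadjusted p under 0.05, in bright and in dim CMs. *Lbh* and *Mef2d* were higher in both bright sums than in both controls, as were 24.3% of all genes, and *Nkx2-5* was lower in both, as were 14.8%. Between dim and control CMs, 7 genes had a positive and 3 a negative log2 fold change, with a median of 0.37 compared to 0.10 over all genes. None passed the adjusted threshold, and 0% of all 12195 genes tested passed it. *Lbh* and *Mef2a* did not overlap with the controls and were higher, as were 23.8% of all genes, and none of the 10 was lower without overlap, compared to 14.2%. Both shares of higher genes are near or below the background, and the counts are no result about the 10 genes.

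Between bright and dim CMs of the same mice, 4 of the 10 genes had a positive and 6 a negative log2 fold change, with a median of -0.08 compared to -0.01 over 13439 genes. None passed the adjusted threshold, and 0% of all genes passed it. None of the 10 had an unadjusted p under 0.05, compared to 4.12% of all genes. *Tbx5* and *Hand2* were lower in both bright sums than in both dim sums, as were 16% of all genes, and none was higher in both, compared to 15.1%. The immune genes *Lyz2*, *C1qb* and *C1qa* were at ranks 1, 2 and 4 by p in this comparison, lower in bright CMs, and the part of such RNA in the differences of the 10 genes was not tested. Without cells with over 1000 CPM of fibroblast, endothelial or immune markers, the log2 fold change was -0.39 (SE 0.66) for *Tbx5* and -0.18 (SE 0.53) for *Hand2*. The largest difference in the 10 genes was that of *Tbx5*, and the SE ranged from 0.24 to 0.48.

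**Figure D4:**
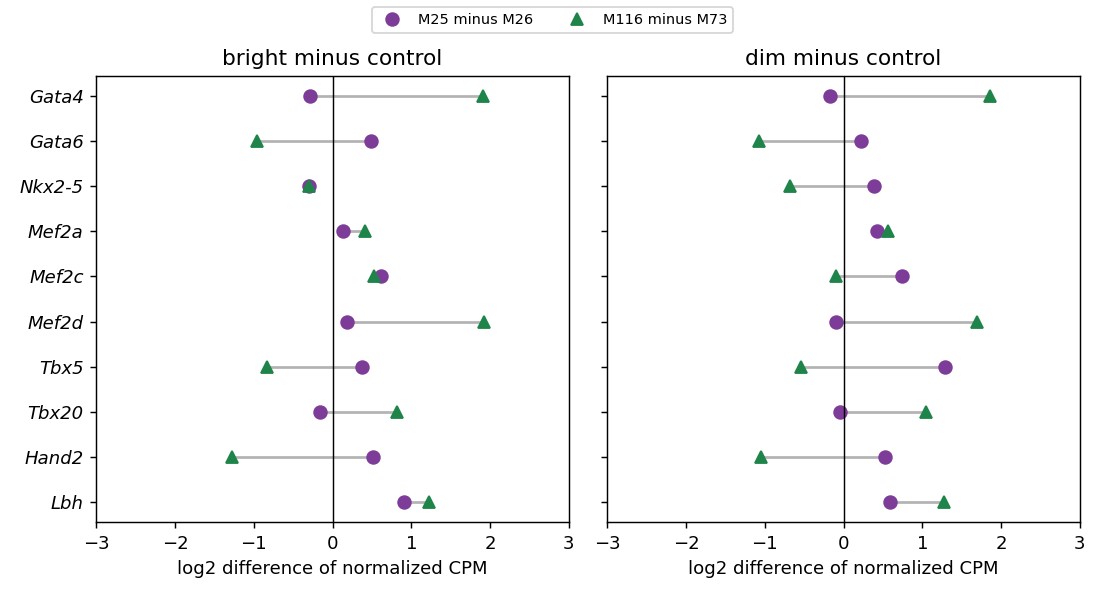
Log2 difference of normalized CPM between the homozygous and the control mouse of each plate series, M25 minus M26 (circles) and M116 minus M73 (triangles), for bright (left) and dim (right) CMs; there is 1 mouse on each side. *Lbh* is positive in all 4 differences with values from 0.59 to 1.27, and *Gata4*, *Gata6*, *Tbx5*, *Tbx20* and *Hand2* lie on opposite sides of 0 in both panels.

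Within the plate series, *Lbh* and *Mef2a* had positive differences in both series and both brightness classes. The differences of *Mef2a* were smaller, at 0.13 and 0.41 in bright and 0.43 and 0.56 in dim CMs of M25 and M116. *Gata4* differed by -0.29 and 1.91 in bright CMs, *Gata6* by 0.49 and -0.96, *Hand2* by 0.51 and -1.27, *Tbx5* by 0.37 and -0.84 and *Tbx20* by -0.17 and 0.82. These 5 genes thus had opposite directions in the 2 series, also in dim CMs. The 2 control mice differed by 1.63 for *Gata6*, 1.61 for *Hand2*, 1.37 for *Tbx5*, -1.36 for *Mef2d* and -1.61 for *Gata4* on the log2 scale (M73 minus M26), compared to 0.25 for *Lbh*. Since each control mouse is also 1 plate series, mouse and plate series cannot be told apart, and M116 and M73 shared no plate.

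In the heterozygous mouse M72, *Gata4* had 70.4 and 98.8 normalized CPM (labelled bright and dim), above the 62.2 and 20.3 of the controls. *Mef2c* (56.0 and 78.0), *Mef2d* (64.1 and 51.5) and *Tbx5* (22.9 and 26.6) also lay above both controls in both classes. With *Lbh*, 5 of the 10 genes were higher in both classes than in both controls, as were 20% of all genes kept over the 8 sums, and *Mef2c* and *Tbx5* exceeded the higher control (55.4 and 21.5) only narrowly in the labelled bright class. *Gata6*, at 112 and 121, and *Hand2*, at 8.82 and 11.9, lay between the controls. *Tbx20*, at 65.1 and 81.1, did so too. With 1 mouse there was no test, and M72 was the only male by *Xist* and *Ddx3y*.

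Closest relatives of the 10 genes were mostly not measurable. Of 14 other members of these families, 11 did not pass the filter on low counts between bright and control CMs, among them *Gata5*, *Hand1* and *Tbx3*. *Tbx18*, a T-box gene of the sinus node and epicardium, had 3.86 and 0.88 normalized CPM in bright CMs and 0.11 and 0 in controls (log2 fold change 4.86, SE 1.97, edgeR adjusted p = 0.761). *Gata2* and *Tbx2* had at most 3.67 normalized CPM. These levels are low against all of the 10 genes, and none of the relatives passed the threshold in any comparison.

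Of 31 partner proteins and cofactors, 27 were tested between bright and control CMs and none passed the adjusted threshold, compared to 0.0164% of all genes. Log2 fold changes were positive for 13 and negative for 14 genes, with a median of -0.02 compared to 0.11 over all genes. Without overlap, 9 were higher and 4 lower, compared to 24.3% and 14.8% of all genes, and 0 higher and 2 lower genes had an unadjusted p under 0.05, compared to 4.7% and 1.85%. In dim CMs 28 were tested, with a median of 0.30 compared to 0.10 over all genes. Of these 0 passed the adjusted threshold, compared to 0% of all genes. An unadjusted p under 0.05 (edgeR) was found for 1 higher and 1 lower gene, compared to 6.22% of all genes in either direction. Without overlap, 7 were higher and 3 lower in dim CMs, compared to 23.8% and 14.2% of all genes. *Hopx*, a homeodomain-only cofactor that restrains serum response factor, was lower without overlap at 26.5 and 27.6 normalized CPM in bright CMs compared to 49.4 and 79.4 in controls (log2 fold change -1.25, SE 0.48, edgeR adjusted p = 0.730). Dim CMs had nearly the same values, 25.8 and 26.9. *Hey1*, a Notch target and repressor, had 0.15 and 0 normalized CPM in bright CMs compared to 2.36 and 8.46 in controls. In dim CMs *Hey1* had 4.05 and 1.30, which overlapped with the controls, and M72 had 6.08 and 7.86 (scaled over all 8 sums), within their range. *Hdac9*, a class II histone deacetylase that binds MEF2, had 16.2 and 20.4 in bright CMs compared to 3.92 and 6.71. *Nfatc1* overlapped between bright and control CMs. In dim CMs *Nfatc1* was lower without overlap, at 9.42 and 7.30 compared to 11.4 and 52.0 in controls.

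Of 28 genes known as targets of these factors, 27 were tested between bright and control CMs. Log2 fold changes were positive for 9 and negative for 18 genes, with a median of -0.22 compared to 0.11 over all genes. None passed the adjusted threshold, compared to 0.0164% of all genes. An unadjusted p under 0.05 was found for 4 genes that were higher and 4 that were lower in bright CMs, whereas 4.7% and 1.85% of all genes tested were so in these directions. *Ankrd1*, a stretch-responsive cofactor of the sarcomere, had 1208 and 1204 normalized CPM in bright CMs compared to 192 and 233 in controls (log2 fold change 2.50, SE 0.28, edgeR adjusted p = 0.289). *Nppa*, which encodes atrial natriuretic peptide, had 370 and 191 compared to 19.4 and 46.7. In dim CMs *Nppa* had 408 normalized CPM in M25 but 6.07 in M116, below both controls, and M72 had 0.61 and 28.5 (scaled over all 8 sums) in its labelled bright and dim classes. *Ryr2*, the calcium release channel, had 987 and 1084 compared to 1662 and 3520, and *Tnni3*, cardiac troponin I, 8757 and 6222 compared to 13242 and 14194, both lower without overlap. Of the 27 targets 5 were higher and 8 lower without overlap, compared to 24.3% and 14.8% of all genes. In dim CMs 26 targets were tested, with 10 positive and 16 negative log2 fold changes and a median of -0.22 compared to 0.10 over all genes. Of these 0 passed the adjusted threshold, and 2 higher and 1 lower had an unadjusted p under 0.05, compared to 6.22% of all genes in either direction. Without overlap, 3 were higher and 8 lower in dim CMs, compared to 23.8% and 14.2% of all genes.

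Genes with the pattern most like that of each of the 10 were sought among the 3618 genes with at least 10 CPM in every sum, by Pearson's r of log2 normalized CPM over the 8 sums. Of the 10 genes 7 had this level, and *Mef2d*, *Tbx5* and *Hand2* did not. For *Lbh* the closest were *Smarce1* (r = 0.959), *Camk2d* (r = 0.957) and *Nono* (r = 0.947), which encode a chromatin remodelling subunit, a calcium/calmodulin-dependent kinase and a nuclear RNA-binding protein. For *Gata4* these were *Cdc5l* (0.986), *Ppp2r5a* (0.965) and *Gpr146* (0.955), for *Gata6* *Ep300* (0.966) and *Ncoa6* (0.965), and for *Tbx20* *Sdha* (0.966), *Prelid3b* (0.949) and *Psmc4* (0.925). *Mef2c* was closest to *Dennd5a* (0.985), *Tln1* (0.951) and *Cdkn2d* (0.933), *Mef2a* to *Tcp11l2* (0.899) and *Nkx2-5* to *Rbis* (0.946). The 8 points come from 5 mice, are the best of 3618, and share mouse, plate and depth, so that the values only rank patterns.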

How the data were processed

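Count values were those the authors deposited: whole numbers of reads per gene and cell, without normalization. The authors mapped reads with STAR (named with bcl2fastq in the submitters' processing notes) against mouse sequence supplemented by the human BAG3 and eGFP transcripts, and counted with its GeneCounts option. The genome build, annotation and strand column were not given in the sources used here, so no gene positions from the files are printed. Exon lengths came from GENCODE M21, in which 55146 of 55538 symbols were found, and the promoter from RefSeq, which had an entry for 7 of the 10 genes. Cells with low amounts of cDNA were left out by the authors before library preparation.

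The mouse is the replicate. Counts of all 234 cells were summed per mouse and brightness class, and the 4 sums of each comparison entered edgeR 4.0.16 in R 4.3.3 (filter by filterByExpr, TMM factors, glmQLFit, glmQLFTest, Benjamini-Hochberg adjustment over all genes tested, threshold 0.05). Log2 fold changes come from these fits, and each SE was derived from the fold change and the F statistic of its test. Nothing in the labels describes cultures or litters, and p-values measure the spread between these mice. Intervals are exact at the 95% level and cover counting error only. The heterozygous mouse was not tested. Named are the 10 genes, in each other list those past the threshold or otherwise up to 4 with the smallest p between bright and control CMs, and, of the 3 genes closest in pattern, up to 3. Any further gene was picked with its values known. The 10 genes and the lists were chosen with earlier results of these data known. M25 and M116 each gave bright and dim CMs, so these sums are paired by animal. Over 13439 genes, which are not independent replicates, the M25 to M116 differences of the 2 classes had a Pearson's r of 0.0819 and a Spearman's rho of 0.119.

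Alternatives were DESeq2 1.42.0, no TMM factors (library size alone), no filter, cells with at least 1000 genes, equal weight for each cell with limma 3.58.1 on log2(mean CPM + 1), all groups in 1 fit, plate series or mouse as a block, bright and dim cells summed, and each sum left out. Added after seeing the data were fits without cells low in CM markers (under 20000 CPM), without cells with over 1000 CPM of fibroblast, endothelial or immune markers, with edgeR's bias-adjusted quasi-dispersion, and values of each plate series alone. The code was also run on simulated counts with large known changes in genes with high counts, at a fixed spread. That run does not show what the tests can find among smaller differences or in genes with few counts.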

Additional observations from a re-analysis of the deposited data

Results flagged for a closer look

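Several genes differed in opposite directions in the 2 plate series, and these differences were not tested, since each series holds 1 control and 1 homozygous mouse. The log2 difference between homozygous and control CMs in the GL9989 series minus that in the GL-9122b series was 2.196 in bright and 2.03 in dim CMs for *Gata4*, and -1.45 and -1.30 for *Gata6*. It was -1.20 and -1.82 for *Tbx5* and -1.78 and -1.58 for *Hand2*. In dim CMs alone the directions were opposite, by more than 1 on the log2 scale, also for *Nkx2-5* (-1.07), *Mef2d* (1.78) and *Tbx20* (1.09).

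The heterozygous mouse M72 entered no tested comparison, and 5 of the 10 genes lay above both controls in both of its classes, compared to 20% of all genes kept over the 8 sums. In CMs labelled bright and dim, *Lbh* had 309 and 317 normalized CPM, *Gata4* 70.4 and 98.8, *Mef2c* 56.0 and 78.0, *Mef2d* 64.1 and 51.5, and *Tbx5* 22.9 and 26.6. M72 and M73 shared a plate but differed in sex by *Xist* and *Ddx3y*, so that genotype and sex cannot be told apart.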

How the results depend on the processing

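None of the 10 genes passed the adjusted threshold in any comparison under any alternative. The number of all genes past it depended on the setting: between bright and control CMs it was 2, compared to 92 with DESeq2, 163 without a filter, 10 with the plate series as a block, 5 with all groups in 1 fit, 1 with the bias-adjusted quasi-dispersion, 0 with equal weight of cells and 0 to 41 with 1 sum left out. Between dim and control CMs it was 0, compared to 53, 58, 12 and 1 under the first 4 of these, and to 3 to 827 with 1 sum left out (827 without M26). Between bright and dim CMs it was 0, compared to 91 with DESeq2, 217 without a filter and 0 to 74 with 1 sum left out. With the mouse as a replicate block it was 0 too, with 0 of the 10 genes, and the block changed no call.

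*Lbh* was higher in homozygous than in control CMs under all 15 alternatives in bright CMs (0.75 to 1.55 on the log2 scale) and all 14 in dim CMs (0.43 to 1.42). Its unadjusted p was under 0.05 in 13 of 15 and in 12 of 14, the exceptions being those without M26 and without M116, where it reached at most 0.255 in bright and 0.522 in dim CMs.

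Directions that turned were all of genes that did not pass the threshold, and their cause was not tested. With equal weight of cells, bright minus control was 0.31 for *Gata6*, 0.035 for *Nkx2-5* and 0.49 for *Tbx5*, dim minus control was 0.14 for *Gata6*, 0.26 for *Nkx2-5* and 0.21 for *Hand2*, and bright minus dim was 0.10 for *Gata4*. With library size, dim minus control was 0.23 for *Nkx2-5*, and bright minus dim 0.00083 for *Gata4*. Without cells low in CM markers, bright minus dim was 0.0082 for *Gata4*. In plate series GL-9122b alone, bright minus control was -0.29 for *Gata4*, 0.49 for *Gata6*, 0.37 for *Tbx5*, -0.17 for *Tbx20* and 0.51 for *Hand2*, and dim minus control was -0.17, 0.23 and 0.39 for *Gata4*, *Gata6* and *Nkx2-5* and -0.089, -0.041 and 0.53 for *Mef2d*, *Tbx20* and *Hand2*. In GL9989 alone, dim minus control was -0.10 for *Mef2c* and -0.54 for *Tbx5*. With 1 sum left out, bright minus control ranged from -1.08 to 0.59 for *Gata6*, -0.95 to 0.46 for *Tbx5* and -1.22 to 0.43 for *Hand2*. Dim minus control ranged from -1.24 to 0.40 for *Gata6*, -0.71 to 0.42 for *Nkx2-5*, -0.049 to 0.67 for *Mef2c*, -0.31 to 1.07 for *Tbx5* and -1.08 to 0.54 for *Hand2*. Bright minus dim ranged from -0.34 to 0.22 for *Gata4*, -0.75 to 0.44 for *Nkx2-5*, -0.065 to 0.54 for *Mef2c*, -0.41 to 0.073 for *Tbx20* and -0.30 to 0.64 for *Lbh*. Other genes kept their direction with 1 sum left out, though some of them turned in a plate series alone. For these, bright minus control ranged from 0.039 to 1.61 for *Gata4*, 0.40 to 1.71 for *Mef2d*, 0.18 to 0.97 for *Mef2c*, 0.026 to 0.51 for *Mef2a* and 0.038 to 0.61 for *Tbx20*. Dim minus control ranged from 0.051 to 1.65 for *Gata4*, 0.13 to 1.48 for *Mef2d* and 0.21 to 0.82 for *Tbx20*. A sum left out leaves 1 mouse in a group, whose spread is then taken from the other group.

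The smallest difference that 2 mice per group could show was not measured, and *Lbh*, with a log2 fold change of 1.07 and an SE of 0.34, was not past the adjusted threshold. M73 was the shallowest sum, with 9 cells, 70 *Gata4* counts and 37 *Mef2d* counts.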
